A study of Homo sapiens with 6 samples.

Results

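Interferon-stimulated genes were examined in DU145 cells, a human prostate cancer line, as a list of 50 genes matched by symbol to the 27381 genes of the deposited table. All 50 symbols were found. By role, 41 of the genes are effectors and 9 belong to the signalling side: the sensors DDX58 and IFIH1, the factor STAT2, the factors IRF1, IRF3, IRF7 and IRF9, and the receptor chains IFNAR1 and IFNAR2. The matching used no expression values, but the list was drawn up with earlier results of these data known.

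The labels assign 2 libraries to each of 3 conditions of the DU145 line: a scrambled control (Scr), a CD24 knockout (CD24 KO) and a knockout of RCC2 (RCC2 KO). The knockouts were made by transfection of Cas9 with paired sgRNAs and the control with an sgRNA that has no target, and in each case GFP-positive cells were sorted and expanded as clones. How many clones the libraries represent is not given in the sources used here, and no interferon treatment is named for any group. The table holds 1 FPKM value per gene and condition, fragments counted relative to the length of the transcript and the size of the library, and none per library. The RCC2 KO column bears a name that is also the full label of the first RCC2 KO library, so it may represent 1 library or both. Without values for single libraries there is no replicate check for any difference given here, and no SD or test. The depth behind the values is unknown.

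Neither knockout label was borne out by the RNA of its target. The paper reports that its DU145 knockout clones were checked by flow cytometry, Western blots and Sanger sequencing, which the RNA values do not address. CD24 was at 93.2 FPKM in Scr, 309 in the CD24 KO column and 214 in the RCC2 KO column. RCC2 was at 37.8, 14.2 and 41.8 FPKM in the same order. The columns are therefore named by their labels throughout, and every direction rests on those labels. Of 4 epithelial markers (KRT8, KRT18, EPCAM and CDH1), 4 were above 1 FPKM in each column, but they did not move together. KRT8 was at 336, 149 and 348 FPKM in Scr, CD24 KO and RCC2 KO and KRT18 at 293, 141 and 305 FPKM, whereas CDH1 was at 27.9, 52.6 and 23.7 FPKM and EPCAM at 58.9, 44.9 and 58.6 FPKM. The keratins made up most of the sum of 715, 387 and 736 FPKM. KLK3 and KLK2, which mark androgen-responsive prostate cells, were listed at 0 in every column. So were PTPRC and CD3E, the defining leukocyte and T cell markers. CD68, a lysosomal protein used as a macrophage marker, was at 37.1, 81.5 and 38.4 FPKM, and made up nearly the whole sum of the 5 leukocyte markers, which was 38.2, 82.4 and 38.7 FPKM. Of the B cell markers, CD79A was at 0.793, 37.0 and 1.44 FPKM, whereas MS4A1 was listed at 0 in every column. Fibroblast and endothelial markers stayed under 1 FPKM. The columns also summed to 451272, 388764 and 447005 FPKM, and the ribosomal RNA gene RNR2 was at 26884 FPKM in Scr, listed at 0 in CD24 KO and at 22704 FPKM in RCC2 KO. The part of these differences in the results below was not tested.

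Type I interferons bind the IFNAR1 and IFNAR2 chains, whose kinases activate STAT factors. STAT2 joins IRF9 in the complex ISGF3, which binds the interferon-stimulated response element (ISRE) in the promoters of its target genes. The cytosolic helicases DDX58 (RIG-I) and IFIH1 (MDA5) recognise viral RNA and, through IRF3 and IRF7, switch on interferon genes. The effectors act on viral entry, RNA, translation and protein modification, and several sensors, STATs and IRFs are themselves interferon targets.

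At the level of RNA, effectors were modestly expressed in all 3 columns. A gene was compared when it reached 1 FPKM in any column, which held for 39 of the 50 genes and for 12822 genes of the table. All 9 signalling genes were compared and 11 effectors were not. The median level of the 30 effectors compared was 6.22 FPKM in Scr, 8.36 in CD24 KO and 7.86 in RCC2 KO, against 10.5, 10.2 and 10.5 FPKM for all genes compared. The 9 signalling genes had medians of 11.9, 14.8 and 10.2 FPKM. The filter itself let in OAS1, DDX60 and IFITM1 through their higher columns only, since each was below 1 FPKM in Scr.

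The highest levels belonged to IFITM3 and IFITM2, membrane proteins that hinder the fusion of viruses with the cell. IFITM3 was at 97.0, 98.1 and 106 FPKM in Scr, CD24 KO and RCC2 KO, and IFITM2 at 74.5, 77.2 and 82.6 FPKM. Their lowest and highest columns differed by a ratio of 1.09 and 1.11. These genes are close paralogs, and fragments could have been divided between them. The receptor chain IFNAR2 followed, at 47.1, 37.0 and 43.5 FPKM. IFNAR1, at 24.1, 18.7 and 25.7 FPKM, came after IRF3 in every column and also after STAT2 and PLSCR1 in CD24 KO.

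The 11 effectors left out of the comparisons reached at most 0.674 FPKM. RSAD2 (viperin) and CMPK2, which act together in making an antiviral nucleotide, were listed at 0 in every column. IFI27 was listed at 0 in CD24 KO, with 0.331 FPKM in Scr and 0.203 in RCC2 KO, whereas XAF1 had its 0 in Scr and reached 0.104 FPKM in the CD24 KO column. BST2 (tetherin), which holds budding virus at the cell surface, was at 0.169, 0.517 and 0.142 FPKM. OAS2 was at 0.201, 0.674 and 0.541 FPKM, and MX2, a GTPase that blocks nuclear import of virus, at 0.353, 0.495 and 0.376 FPKM. IFI44L, EPSTI1, SAMD9L and TRIM22 reached at most 0.280 FPKM in any column. No fold is given for these genes.

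**Figure D1:**
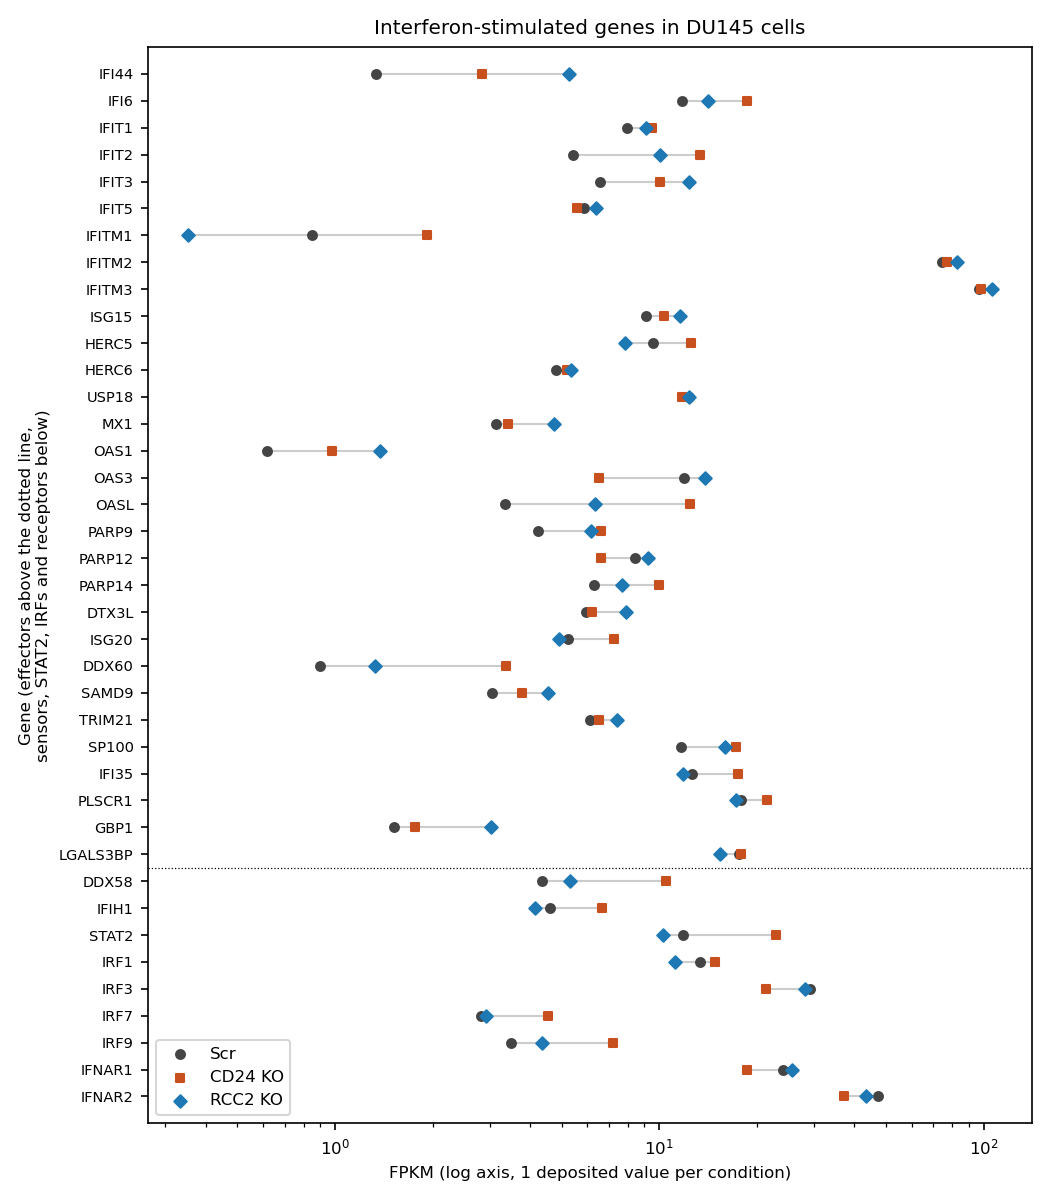
FPKM of the 39 interferon-stimulated genes compared, 1 row per gene on a log axis, with 1 point per condition (circle Scr, square CD24 KO, diamond RCC2 KO) and a line from the lowest to the highest; there are no error bars because the table has 1 value per condition. IFITM3 and IFITM2 stand at the right at 97.0 to 106 and 74.5 to 82.6 FPKM, and IFITM1, at 0.353 to 1.93 FPKM, has the widest line.

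The promoters of the members are of interest because ISGF3 and the IRFs read a sequence there. RefSeq windows of 300 bases (250 before the start site and 50 from it on, GRCh38.p14) were found for 40 of the 50 genes, DDX58 under its current symbol RIGI. IFIT2, IFITM2, USP18, MX2, OAS2, OASL, TRIM22, IRF3, IRF7 and IFNAR2 had none. The core of the ISRE, searched as GAAANNGAA on both strands, was present in 29 of these 40 genes. It was found in 28 of 34 effectors (82.4%), in IFIH1 as 1 of 6 signalling genes, and in 9.86% of 27305 genes with a window. A match describes letters only and is not a binding site. The core of the STAT-binding GAS element, searched as TTCNNNGAA, which reads the same on both strands and was chosen after the data had been seen, was found in 12 of the 40 genes and in 9.38% of genes with a window. It can overlap the ISRE core, as in IFITM1 and BST2. IRF1 and IRF9 held a GAS core and no ISRE core, and the windows of DDX58 and STAT2 held neither.

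The stretches that follow carry the ISRE cores of members described below. These members were picked with their values known, as examples with different orders of the columns. Their differing orders therefore follow from the choice and are no result about the core. Capitals mark the matches, which read TTCNNTTTC where the core lies on the opposite strand. The stretches for IFI44 (chr1:78649757-78649795), IFIT3 (chr10:89327827-89327899), OAS3 (chr12:112938316-112938483), IFITM1 (chr11:313985-314049) and ISG15 (chr1:1013369-1013419) lie on the plus strand, and those for DDX60 (chr4:168318782-168318855) and GBP1 (chr1:89065311-89065349) on the minus strand. All are from RefSeq, GRCh38.p14, and are written from 5′ to 3′ along the gene.
IFI44: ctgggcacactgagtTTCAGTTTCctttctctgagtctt
GBP1: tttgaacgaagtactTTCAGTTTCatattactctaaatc
IFIT3: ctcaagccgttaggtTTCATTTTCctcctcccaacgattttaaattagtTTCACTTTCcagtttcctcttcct
ISG15: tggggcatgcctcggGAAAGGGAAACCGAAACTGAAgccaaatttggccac
DDX60: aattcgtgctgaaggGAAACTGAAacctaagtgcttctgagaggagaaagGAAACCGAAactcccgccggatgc
IFITM1: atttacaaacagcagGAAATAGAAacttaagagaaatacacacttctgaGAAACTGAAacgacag
OAS3: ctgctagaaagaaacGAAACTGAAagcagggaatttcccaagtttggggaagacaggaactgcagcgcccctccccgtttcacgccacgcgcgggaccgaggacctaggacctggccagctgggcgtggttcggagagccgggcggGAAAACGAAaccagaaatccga
IFI44 and GBP1, with 1 core each in these stretches, had their highest value in RCC2 KO. The GBP1 window holds 2 matches, of which the stretch prints 1. IFIT3 and OAS3, with 2 cores each, were also highest in RCC2 KO, and OAS3 was lowest in CD24 KO. DDX60 and IFITM1, with 2 cores each, had their highest value in CD24 KO. ISG15, whose 3 cores follow each other with shared bases, was highest in RCC2 KO and varied by a ratio of 1.27 over the columns. Among effectors compared, the median log2 difference of CD24 KO from Scr was 0.23 for the 22 genes with an ISRE core and 0.37 for the 4 genes with a window and none (HERC6, OAS1, SP100 and IFI35). For RCC2 KO these medians were 0.24 and 0.27. Neither group includes OASL, IFIT2, IFITM2 and USP18, the 4 compared effectors that lack a window. Their median difference from Scr was larger, at 0.60 for the CD24 KO column and 0.45 for that of RCC2 KO. Of the effectors at least 2-fold higher in CD24 KO, OASL and IFIT2 lack a window and DDX60 has a core. Whether the core goes with these differences was not tested.

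**Figure D2:**
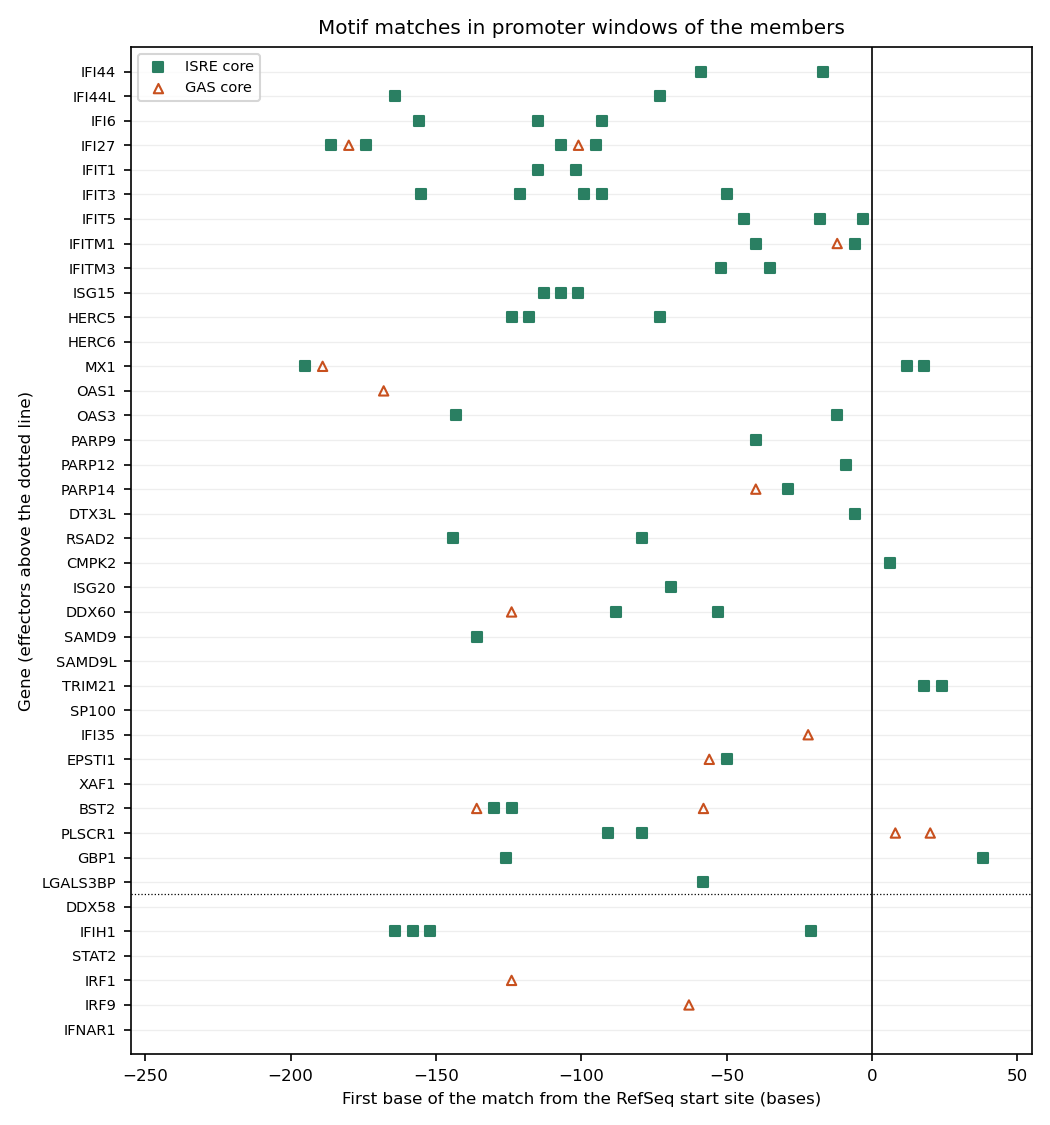
Position of ISRE core matches (squares) and GAS core matches (triangles) in the promoter windows of the 40 members that have one, in bases from the RefSeq start site (vertical line); genes with several start sites have the matches of all their windows on 1 row. Matches to the ISRE core are on the rows of 28 effectors above the dotted line and of IFIH1 below it.

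The first comparison asked how the RNA of these genes in the CD24 KO column differed from Scr. OASL, DDX60, IFIT2 and DDX58 were at least 2-fold higher there, on the scale of log2(FPKM + 1), and no member was at least 2-fold lower. These 4 of 39 genes are 10.3%, against 2.67% of all genes compared that were at least 2-fold higher and 3.03% that were at least 2-fold lower. At 1.5-fold, 10 members (25.6%) were higher and 1 (OAS3) was lower, against 9.55% and 11.6% of all genes. DDX60 and IFITM1 are among these 10 and were below 1 FPKM in Scr, so the filter let them in through higher columns only. With at least 1 FPKM in every column, 3 of 36 members were at least 2-fold higher. The share of the 11588 genes compared under that filter was not calculated, so this count has no background beside it. The median log2 difference was 0.24 over 30 effectors, 0.45 over 9 signalling genes and -0.034 over all genes compared. A positive difference was found for 32 of the 39 members and for 6022 of the 12822 genes compared. In such bulk RNA, more cells that express a gene and more RNA of it per cell cannot be told apart. Adding 1 FPKM understates the change of low genes, and with a pseudocount of 5 OASL alone remained past 2-fold.

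Among effectors, OASL, an OAS-like protein without synthase activity that assists RIG-I, was at 3.34 FPKM in Scr, 12.5 in CD24 KO and 6.32 in RCC2 KO. Its value in CD24 KO was 3.73 times that in Scr, a log2 difference of 1.63, and 65 of the 12822 genes lay at least as high. DDX60, a helicase that promotes RIG-I signalling, was at 0.899, 3.36 and 1.32 FPKM, with a log2 difference of 1.20 in CD24 KO. The ratio to Scr was 3.73 as well, but from a Scr value below 1 FPKM. IFIT2, which binds viral RNA, was at 5.43, 13.3 and 10.05 FPKM, and its log2 difference in CD24 KO was 1.16. In these 3 genes the order of the columns was the same, with Scr lowest and CD24 KO highest.

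The families of these effectors were not uniform. The 4 IFIT genes lie side by side on chromosome 10, from 91061706 to 91180759 in the table's coordinates, which were read as hg19. In CD24 KO the log2 difference was 0.55 for IFIT3, 0.23 for IFIT1 and -0.064 for IFIT5, whose sign turned after conversion to TPM. OAS1 and OAS3, the compared synthases of the 2-5A that activates RNase L, parted in direction in CD24 KO. OAS1 was at 0.615, 0.981 and 1.38 FPKM in Scr, CD24 KO and RCC2 KO, whereas OAS3, its neighbour on chromosome 12, was at 12.0, 6.50 and 13.8 FPKM. The OAS1 values in Scr and CD24 KO were both below 1 FPKM, and OAS2 was not compared. The log2 difference of OAS3 in CD24 KO was -0.79, the lowest of the 39 members. IFITM1, the third IFITM gene of the cluster on chromosome 11, was at 0.850, 1.93 and 0.353 FPKM.

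The enzymes of ISG15 conjugation showed smaller differences. ISG15, a ubiquitin-like modifier, was at 9.08, 10.3 and 11.6 FPKM. HERC5, the ligase that attaches it to proteins, was at 9.56, 12.5 and 7.83 FPKM, and its relative HERC6 at 4.81, 5.19 and 5.36 FPKM. USP18, which removes ISG15 and restrains IFNAR2 signalling, was at 12.4, 11.7 and 12.4 FPKM. No member of this group reached 1.5-fold in either knockout against Scr.

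Of the remaining effectors, IFI6, a small membrane protein, was at 11.7, 18.7 and 14.1 FPKM in Scr, CD24 KO and RCC2 KO. PARP14, an ADP-ribosyltransferase, was at 6.30, 9.96 and 7.69 FPKM. These genes passed 1.5-fold in CD24 KO, with log2 differences of 0.63 and 0.59. PARP9, which works in a pair with the ligase DTX3L, was at 4.23, 6.63 and 6.15 FPKM and DTX3L at 5.94, 6.19 and 7.88 FPKM. The table gives the neighbours PARP9 and DTX3L 1 merged position, so fragments could have been divided between them. PARP12, in contrast, was at 8.41, 6.61 and 9.23 FPKM.
SP100, a nuclear body protein, was at 11.7, 17.2 and 15.95 FPKM, and IFI35 at 12.6, 17.5 and 11.8 FPKM. ISG20, an exonuclease, was at 5.25, 7.24 and 4.91 FPKM, and PLSCR1, a scramblase, at 17.9, 21.5 and 17.2 FPKM. All 4 genes had their highest value in CD24 KO and stayed under 1.5-fold. TRIM21, an antibody receptor of the cytosol, was at 6.14, 6.54 and 7.39 FPKM, and the secreted glycoprotein LGALS3BP at 17.6, 17.9 and 15.4 FPKM.

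On the signalling side, DDX58 was at 4.36 FPKM in Scr, 10.5 in CD24 KO and 5.30 in RCC2 KO, a log2 difference of 1.10 in CD24 KO. IFIH1 was at 4.61, 6.67 and 4.15 FPKM. STAT2 was at 11.9, 23.0 and 10.2 FPKM and its partner IRF9 at 3.49, 7.18 and 4.35 FPKM, with log2 differences of 0.90 and 0.86 in CD24 KO. Both thus passed 1.5-fold. IRF7, which amplifies the interferon response, was at 2.82, 4.55 and 2.92 FPKM.
IRF1, a factor also driven by interferon gamma, was at 13.4, 14.8 and 11.2 FPKM. IRF3, which is present before any stimulus, was at 29.2, 21.4 and 28.1 FPKM, a log2 difference of -0.43 in CD24 KO. The table places IRF3 on a position shared with BCL2L12. IFNAR1 and IFNAR2 had log2 differences of -0.35 and -0.34. Both sensors, STAT2, IRF1, IRF7 and IRF9 therefore had higher values in CD24 KO than in Scr, and both receptor chains and IRF3 had lower ones, a direction that held under the other scalings tried.

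**Figure D3:**
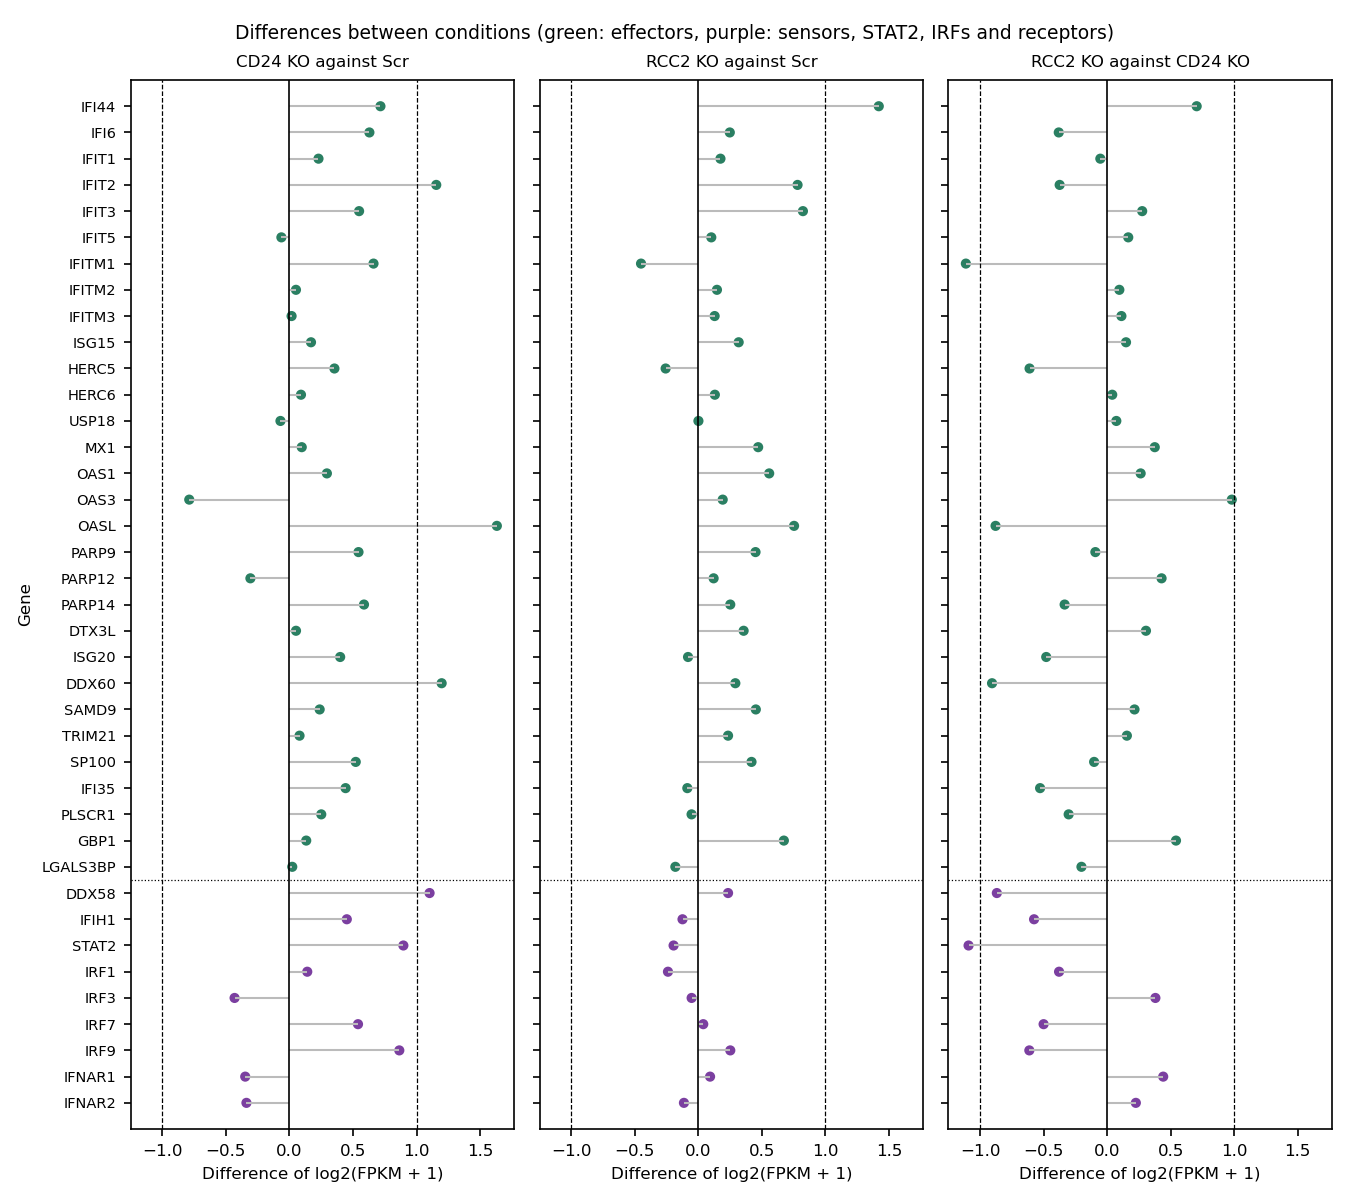
Difference of log2(FPKM + 1) for each of the 39 genes compared, in CD24 KO against Scr, RCC2 KO against Scr and RCC2 KO against CD24 KO; green points are effectors, purple points the 9 signalling genes, and dashed lines mark a 2-fold difference. OASL (1.63), DDX60, IFIT2 and DDX58 lie past the line in the first panel, IFI44 (1.42) in the second, and IFITM1 and STAT2 in the third.

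The second comparison set the RCC2 KO column against the same Scr values. IFI44 was at least 2-fold higher and no member was at least 2-fold lower. This is 2.56% of the 39 members, against 0.406% of all genes compared that were higher and 0.796% that were lower by that measure. At 1.5-fold, 5 members (12.8%) were higher, all of them effectors, and none was lower, against 1.45% and 3.82% of all genes. The median log2 difference was 0.24 over the 30 effectors, of which 24 were positive, and -0.053 over the 9 signalling genes, of which 4 were positive. Over all genes compared the median was -0.0036, and 6317 of 12822 were positive. With a pseudocount of 5 the IFI44 difference was 0.69 and no member was past 2-fold.

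IFI44, a cytoplasmic protein of the interferon response, was at 1.34 FPKM in Scr, 2.84 in CD24 KO and 5.26 in RCC2 KO. The value in RCC2 KO was 3.93 times that in Scr, a log2 difference of 1.42, and 24 of the 12822 genes lay at least as high. Its neighbour IFI44L reached at most 0.0413 FPKM in any column. The table places IFI44 on chromosome 1 from 79115474 to 79129763. IFIT3, which stabilises IFIT1 on viral RNA, was at 6.55, 10.04 and 12.4 FPKM, with a log2 difference of 0.82. GBP1, a GTPase induced mainly by interferon gamma, was at 1.52, 1.76 and 3.02 FPKM, a difference of 0.67.
For IFIT2 and OASL, described above, the differences in RCC2 KO were 0.78 and 0.75. These 5 genes are the members past 1.5-fold.

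Other effectors had smaller differences in the same direction. OAS1 had a log2 difference of 0.56 in RCC2 KO. MX1, a GTPase that traps viral nucleocapsids, was at 3.14, 3.43 and 4.74 FPKM in Scr, CD24 KO and RCC2 KO, and SAMD9, a restriction factor of poxviruses, at 3.05, 3.77 and 4.54 FPKM. IFIT1, which binds viral RNA that lacks cap methylation, was at 7.94, 9.48 and 9.09 FPKM, and IFIT5, which binds RNA with a 5′ phosphate, at 5.88, 5.58 and 6.38 FPKM. The lowest difference among effectors was that of IFITM1, at -0.45. Of the signalling genes, IRF9 had the highest difference, at 0.25, and IRF1 the lowest, at -0.24. No gene on that side reached 1.5-fold in RCC2 KO.

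None of the 30 effectors compared had its highest value in Scr, against 26.0% of all genes compared, and 20 of the 30 had their lowest value there, against 22.4%. Of these 30, OAS1, DDX60 and IFITM1 were below 1 FPKM in Scr, so the filter itself kept them from being highest there. Among effectors left out by the filter, IFI27 and EPSTI1 had their highest values in Scr, at 0.331 and 0.182 FPKM. CD24 KO held the highest value for 14 effectors (46.7%) and RCC2 KO for 16 (53.3%), against 39.7% and 34.4% of all genes compared. With median centring, quantile normalization and conversion to TPM the number of compared effectors highest in Scr stayed at 0, but the background moved. After conversion to TPM, 2133 of 12880 genes compared were highest in Scr, where 3330 of 12822 had been, and 4094 were lowest there, where 2875 had been. The effectors lowest in Scr were then 22 of 30. Among the 9 signalling genes, 6 (66.7%) were highest in CD24 KO, 1 (11.1%) in RCC2 KO and 2 (22.2%, IRF3 and IFNAR2) in Scr. The shares of all genes compared were 39.7%, 34.4% and 26.0% in that order. Both knockout comparisons use the same Scr values, so their directions are not separate observations.

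**Figure D4:**
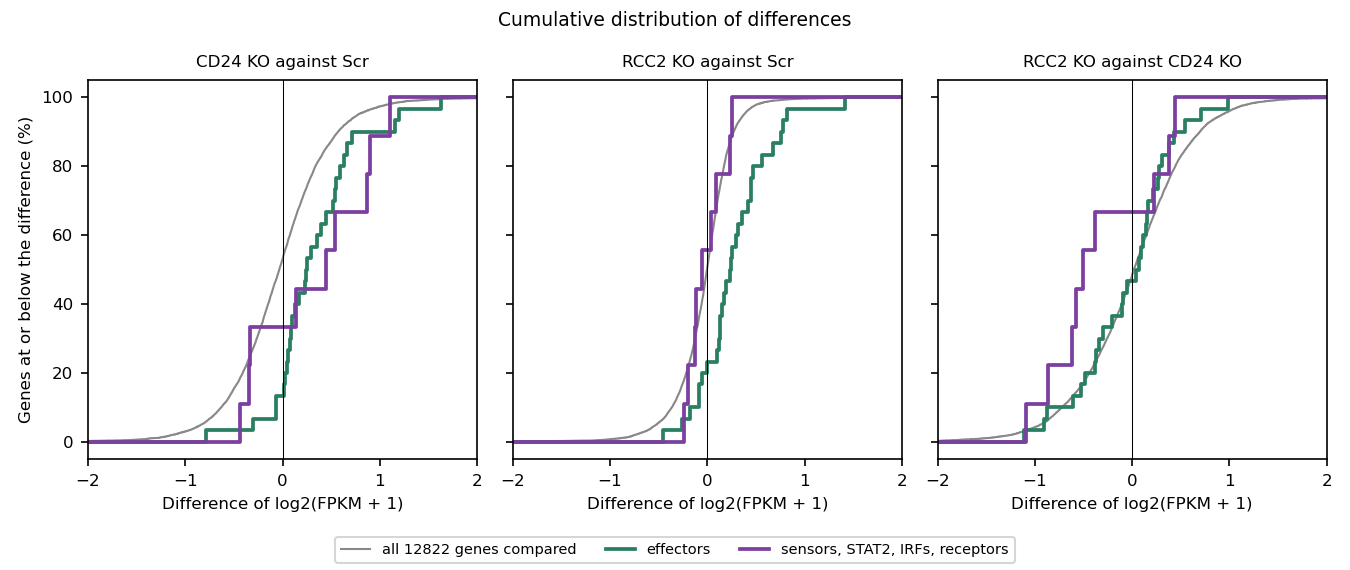
Cumulative share of genes at or below a difference of log2(FPKM + 1), for all 12822 genes compared (grey), 30 effectors (green) and 9 signalling genes (purple), in the 3 comparisons. The green curve lies to the right of the grey one in both comparisons with Scr, with medians of 0.24, and near it between the knockouts, at 0.056; the purple median is 0.45, -0.053 and -0.50.

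The third comparison set RCC2 KO against CD24 KO. Its differences use no Scr values, which entered only through the filter. They reuse the CD24 KO and RCC2 KO values of the comparisons above and are not separate observations. No member was at least 2-fold higher in RCC2 KO, where 4.02% of all genes were, and 2 members (5.13%), IFITM1 and STAT2, were at least 2-fold lower, against 4.30% of all genes. At 1.5-fold, IFI44 and OAS3 (5.13%) were higher and 7 members (17.9%) were lower, against 13.8% and 14.1% of all genes. The shares of lower members were near the background, and those of higher members lay below it. STAT2 had a log2 difference of -1.09 and IFITM1 one of -1.11, the latter between 1.93 and 0.353 FPKM. The other genes lower by 1.5-fold were HERC5, OASL, DDX60, DDX58 and IRF9, with differences from -0.61 to -0.91. OAS3 was at the upper end, at 0.98.

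The classes differed in this comparison. The median of the 30 effectors was 0.056, with 16 higher and 14 lower in RCC2 KO. For all genes compared it was 0.017, with 6620 higher and 6190 lower. The sign of the effector median turned with other settings, to -0.078 after quantile normalization. The median of the 9 signalling genes was -0.50, with DDX58, IFIH1, STAT2, IRF1, IRF7 and IRF9 lower in RCC2 KO and IRF3, IFNAR1 and IFNAR2 higher. The difference between the classes has no test, since each rests on 1 value per gene and condition.

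Other genes of the pathway were taken from a list of 62 symbols, of which 43 were compared. Of 11 interferon genes in the table, 7 were listed at 0 in every column, IFNB1 and IFNG among them, and the highest value was 0.226 FPKM, for IFNE. A listed 0 need not mean absence, since RNR2, which every cell uses, was also listed at 0 in CD24 KO. The 43 genes had a median log2 difference of 0.070 in CD24 KO, -0.039 in RCC2 KO and -0.18 between RCC2 KO and CD24 KO. In CD24 KO 1 gene was at least 2-fold higher and 1 at least 2-fold lower than Scr, 2.33% each way, which is no more than the 2.67% and 3.03% of all genes. In RCC2 KO no gene was past 2-fold. The shares at 1.5-fold in CD24 KO, 9.30% in each direction, were near or below those of all genes.

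The gene past 2-fold upward was IFI16, a nuclear DNA sensor, at 1.40 FPKM in Scr, 6.12 in CD24 KO and 2.22 in RCC2 KO, with a log2 difference of 1.57 in CD24 KO. The one downward was SOCS3, an inhibitor of cytokine receptors, at 14.9, 5.03 and 8.38 FPKM, which lay -1.40 (CD24 KO) and -0.76 (RCC2 KO) from Scr on the log2 scale. SOCS3 was the only gene of this list past 1.5-fold in RCC2 KO against Scr.
Other genes of DNA sensing went both ways in CD24 KO. TMEM173 (STING) was at 12.8, 24.9 and 14.0 FPKM, and MB21D1 (cGAS), which makes its ligand, at 21.0, 12.8 and 18.8 FPKM. The interferon gamma receptor chains also parted, with IFNGR1 at 23.2, 33.9 and 21.98 FPKM and IFNGR2 at 55.1, 32.4 and 53.6 FPKM. PTPN2, a phosphatase that limits this signalling, was at 49.5, 28.9 and 48.2 FPKM.
The list held 24 further interferon targets, of which 19 were compared, and these had no shift like that of the effectors. Their median log2 difference from Scr was 0.0077 in CD24 KO, with 10 higher and 9 lower. In RCC2 KO it was -0.027, with 8 higher and 11 lower, whereas the 30 effectors had 0.24 in both. Only HELZ2, TRIM14 and TNFSF10 passed 1.5-fold in a comparison. HELZ2 was at 1.59, 3.26 and 1.25 FPKM, TRIM14 at 17.6, 13.4 and 20.9 FPKM, and TNFSF10 (TRAIL), a death ligand, at 0.447, 1.63 and 0.427 FPKM. HELZ2 had a log2 difference of 0.72 in CD24 KO. That of TNFSF10 was 0.86, but the gene was compared only through its value in CD24 KO, the one column above 1 FPKM. TRIM14 was higher by 0.61 on the log2 scale in RCC2 KO than in CD24 KO.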

How the data were processed

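RNA-seq of 6 DU145 libraries, 2 per condition, was deposited by the authors as 1 table of FPKM, with 1 column per condition. The submitters' processing notes name HISAT, StringTie, Cufflinks and GATK; the genome build and whether and how libraries were combined are not given in the sources used here. A stranded mRNA kit is named in the methods. Among 24864 genes with a GENCODE 29 entry, 15.8% lay on their GRCh38 coordinates, which were therefore not those of the table, and positions were read as hg19, with starts counted from 1.

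Genes at 1 FPKM or more in any column were compared as log2(FPKM + 1), with 2-fold as the call and no test, because the table has 1 value per gene and condition. The tests planned for separate libraries (limma, each replicate left out) could not be run. Named were all 50 members, CD24 and RCC2, and other pathway genes past 1.5-fold; cell type markers were added as a check. Members, roles and lists were chosen with earlier results of these data known. Alternatives were other pseudocounts, filters, scalings and a 1.5-fold minimum. The calculation was checked on simulated data, with changes above 2-fold planted only in genes of at least a set level in Scr. The check does not cover smaller changes or genes below that level. Promoter windows came from RefSeq. Python 3.11.15, NumPy 2.4.6, pandas 2.3.3 and matplotlib 3.10.9 were used.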

Additional observations from a re-analysis of the deposited data

How the results depend on the processing

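No value has a replicate check and the depth is unknown, so differences of low genes (IFI44, DDX60, IFITM1, OAS1, GBP1) are the least certain. No paired analysis was possible because the table holds 1 value per gene and condition and no column carries a replicate number; leaving out a replicate was not possible for the same reason. The pseudocount and the fold minimum moved the counts most. Shares of all genes past 2-fold or 1.5-fold were calculated only for log2(FPKM + 1) with the filter and scaling used above. The counts with other pseudocounts, filters or scalings have no such share beside them and are no result about the members. In CD24 KO against Scr, 4 members at least 2-fold higher became 7 with a pseudocount of 0.1, 1 with a pseudocount of 5, 10 at 1.5-fold, 3 with at least 1 FPKM in every column (without DDX60) and 6 after conversion to TPM (with STAT2 and IRF9), and 0 lower became 1 at 1.5-fold. In RCC2 KO against Scr, 1 higher became 2 with a pseudocount of 0.1, 0 with a pseudocount of 5 and 5 at 1.5-fold, and 0 lower became 1 with a pseudocount of 0.1. In RCC2 KO against CD24 KO, 0 higher became 1 with a pseudocount of 0.1 and 2 at 1.5-fold. The 2 lower became 0 with a pseudocount of 5, 1 with at least 1 FPKM in every column, 1 after quantile normalization, 7 at 1.5-fold and 5 after conversion to TPM, an alternative chosen after seeing the data.

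With a pseudocount of 5 the medians in CD24 KO against Scr were 0.14 for effectors and 0.28 for signalling genes. Between the knockouts the signalling median was -0.62 with a pseudocount of 0.1 and -0.29 with 5, and the effector median turned to -0.044 with no filter, -0.078 after quantile normalization and -0.12 after conversion to TPM. The conversion to TPM moved the median of all genes in CD24 KO against Scr to 0.16 and between the knockouts to -0.16. It gave medians of 0.41 for effectors and 0.64 for signalling genes in CD24 KO, and -0.66 for signalling genes between the knockouts. Relative to all genes these were 0.26, 0.48 and -0.50. The cause of these moves was not tested. The other alternatives kept the direction of each class median and moved it by less than 0.1. Under the other scalings, single members near 0 changed sign: MX1, IFIT5 and USP18 in CD24 KO against Scr, none in RCC2 KO against Scr, and IFIT5, IFITM2, IFITM3, ISG15, HERC6, USP18 and TRIM21 between the knockouts.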
